A study of Mus musculus with 48 samples.

Results

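Folh1, Npr1, Cd38, Capn3, Ntsr2, Adgrf5, Ighm, Thbd, Fam107a and Atp10b are 10 genes, of 48709 gene identifiers in the neuron RNA tables, selected on measured values: their RNA was much lower in Setd1b cKO than in control in neuron RNA, with a smaller difference in RNA of the whole hippocampal CA region. These genes were thus chosen by the RNA values of both materials, which are given below as a description, with no test. The study compared a Setd1b conditional knockout (cKO) with control in adult C57BL/6J mice labelled 4-6 months old. RNA came from CA neurons (3 libraries labelled cKO and 3 labelled control) and from whole CA tissue (6 and 6). Chromatin of sorted neuronal nuclei was profiled by ChIP-seq, which maps DNA bound to a histone mark, in 4 libraries of each genotype for H3K4me3 and H3K4me1, in 4 labelled cKO and 3 labelled control for H3K27ac, and in 3 labelled cKO and 4 labelled control for H3K9ac. The labels give no Cre driver, no sex and no other allele, and they do not say how the neuron RNA was isolated or whether libraries came from separate animals. Tests over libraries therefore measure the spread between these samples, which may be in part technical.

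Setd1b encodes a methyltransferase of histone H3 lysine 4. Trimethylation of this residue (H3K4me3) marks the starts of transcribed genes, monomethylation (H3K4me1) marks enhancers and the flanks of starts, and acetylation of lysines 27 and 9 (H3K27ac, H3K9ac) marks active regulatory DNA. Complexes built around SETD1 enzymes hold CFP1, a protein that binds unmethylated CpG dinucleotides. The 10 genes share no single function, and most are better known from cells other than excitatory neurons. Folh1 (glutamate carboxypeptidase II), Ntsr2 (a neurotensin receptor), Cd38 (an NAD-consuming ectoenzyme) and Fam107a (a stress-induced actin-binding protein) are known in brain from astrocytes, with Ntsr2 and Fam107a also in neurons. Thbd (thrombomodulin), Adgrf5 (an adhesion G protein-coupled receptor) and Npr1 (the guanylyl cyclase receptor of atrial natriuretic peptide) are known from blood vessels. Ighm, the constant region of the IgM heavy chain, is known from B cells, Capn3 from skeletal muscle, and Atp10b encodes a lipid flippase of the endolysosomal membrane.

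RefSeq promoters, from 250 bases before to 50 bases after a start, were available on GRCm38.p6 for 7 of the 10 genes, with 10 separate starts (starts of 1 gene within 100 bp counted once). Ighm, Thbd and Atp10b had no entry. The promoters below belong to the starts whose chromatin is compared further on, and capitals mark each CpG. They lie at chr7:86775815-86776114 (Folh1, minus strand), chr12:16653220-16653519 (Ntsr2, plus), chr5:43868559-43868858 (Cd38, plus), chr14:8309728-8310027 and chr14:8317558-8317857 (the inner and the outer start of Fam107a, minus), chr3:90465817-90466116 (Npr1, minus) and chr2:120463343-120463642 (the outer start of Capn3, plus).
Folh1: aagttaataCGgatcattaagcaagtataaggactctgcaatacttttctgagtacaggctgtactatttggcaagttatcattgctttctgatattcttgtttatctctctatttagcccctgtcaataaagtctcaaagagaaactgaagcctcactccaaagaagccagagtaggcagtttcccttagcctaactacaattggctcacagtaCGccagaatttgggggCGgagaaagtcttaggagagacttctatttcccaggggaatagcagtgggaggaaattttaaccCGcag
Ntsr2: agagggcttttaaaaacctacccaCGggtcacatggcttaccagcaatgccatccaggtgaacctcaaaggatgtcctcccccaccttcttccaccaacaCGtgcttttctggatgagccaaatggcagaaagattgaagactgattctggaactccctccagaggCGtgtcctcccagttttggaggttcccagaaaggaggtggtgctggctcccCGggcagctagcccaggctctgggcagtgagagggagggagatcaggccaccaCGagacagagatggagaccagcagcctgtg
Cd38: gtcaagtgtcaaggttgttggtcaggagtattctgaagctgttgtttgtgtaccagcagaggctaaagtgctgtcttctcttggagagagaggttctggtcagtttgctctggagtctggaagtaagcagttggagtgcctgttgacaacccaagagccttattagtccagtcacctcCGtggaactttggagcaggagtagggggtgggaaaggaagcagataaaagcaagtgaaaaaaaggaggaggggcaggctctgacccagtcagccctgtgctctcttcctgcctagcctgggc
Fam107a inner: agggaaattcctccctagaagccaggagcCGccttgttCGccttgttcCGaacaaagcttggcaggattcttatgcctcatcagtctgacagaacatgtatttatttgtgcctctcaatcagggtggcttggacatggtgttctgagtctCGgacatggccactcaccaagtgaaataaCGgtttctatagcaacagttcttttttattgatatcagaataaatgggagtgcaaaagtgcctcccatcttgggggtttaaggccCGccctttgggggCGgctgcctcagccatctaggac
Fam107a outer: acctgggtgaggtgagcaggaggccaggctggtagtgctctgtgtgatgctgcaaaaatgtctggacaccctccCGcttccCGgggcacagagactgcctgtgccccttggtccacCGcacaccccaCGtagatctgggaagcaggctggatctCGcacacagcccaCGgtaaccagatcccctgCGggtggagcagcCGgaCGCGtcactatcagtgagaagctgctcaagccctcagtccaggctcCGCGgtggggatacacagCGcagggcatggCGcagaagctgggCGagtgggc
Npr1: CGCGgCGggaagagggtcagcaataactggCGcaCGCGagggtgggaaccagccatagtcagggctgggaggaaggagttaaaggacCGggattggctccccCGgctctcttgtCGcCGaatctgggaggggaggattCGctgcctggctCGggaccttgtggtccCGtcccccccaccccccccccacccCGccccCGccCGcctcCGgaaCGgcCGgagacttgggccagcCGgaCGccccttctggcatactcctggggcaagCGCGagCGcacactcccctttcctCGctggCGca
Capn3 outer: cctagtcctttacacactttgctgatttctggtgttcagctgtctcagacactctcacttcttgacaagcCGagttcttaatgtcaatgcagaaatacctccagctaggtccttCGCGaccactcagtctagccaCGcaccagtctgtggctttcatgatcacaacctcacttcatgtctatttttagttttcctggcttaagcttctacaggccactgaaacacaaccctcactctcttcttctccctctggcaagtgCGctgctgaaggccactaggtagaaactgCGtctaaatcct

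The promoter of Npr1 held 26 CpG, more than 83.2% of the 31404 promoters in the table, and that of Cd38 held 1. Folh1 had 4 CpG, Ntsr2 5, the inner Fam107a start 7, the outer one 15 and the outer Capn3 start 6, against a median of 7 over all promoters. The inner Capn3 start had 4 and both Adgrf5 starts had 8, so 4 of the 10 promoters lay above the median. The GC box GGCGGG, searched on both strands, was present in 2 of the 10 (Npr1 and the inner Fam107a start) and in 35.6% of all promoters. The TATA box TATAAA, also on both strands, was in 0 of the 10 and in 15.5% of all promoters. The GC box holds a CpG, so both features overlap, and a match describes the letters only.

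Neuron RNA libraries held 55.7 to 69.1 M counts and whole CA libraries 14.9 to 20.1 M, so a given CPM rests on more reads in neuron RNA. RNA of the targeted gene was not lower under the cKO label. Setd1b stood at 59.9 to 72.1 CPM (counts per 1e+06 gene counts, a number also written M) in neuron libraries labelled cKO and at 47.6 to 65.4 in those labelled control. These ranges overlapped, and no change was called (log2 0.25, SE 0.13, edgeR adjusted p = 0.361). Whole CA libraries showed 54.6 to 67.6 CPM of Setd1b when labelled cKO against 29.5 to 54.4 when labelled control, a called rise (log2 0.59, SE 0.11, edgeR adjusted p = 0.00415). Counts over the whole gene cannot show the loss of single exons, so every direction below is that of the libraries labelled cKO. Pyramidal neuron markers were present in neuron RNA (Slc17a7, the vesicular glutamate transporter, at 1341 CPM in control). Each stood below its whole CA level, at 26.3 to 98.5% of it in control (median 52.4%). Dentate granule markers stood above their whole CA level in control, at 176 to 608% (median 221%). The highest of these was C1ql2 (45.01 against 7.41 CPM in control).

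Among the cell-surface receptors, Npr1 stood at 6.42, 4.93 and 4.73 CPM in the neuron libraries labelled control and at 0.807, 0.662 and 0.736 in those labelled cKO. Npr1 in whole CA ran from 3.36 to 4.56 CPM (median 3.74, n = 6) in control and from 1.88 to 3.09 (median 2.31, n = 6) in cKO. Control neuron RNA was thus the highest of the 4 groups and cKO neuron RNA the lowest, and the genotypes did not overlap in either material. The fitted log2 fold change of cKO over control was -2.87 (SE 0.17) in neuron RNA and -0.65 (SE 0.15) in whole CA. Ntsr2 showed 40.2, 33.3 and 33.1 CPM in control neuron libraries against 18.6, 15.3 and 16.5 in cKO. Ntsr2 in whole CA stood at 82.0 to 92.1 CPM (median 86.9) in control and at 74.9 to 89.9 (median 83.6) in cKO. All neuron libraries lay below all whole CA libraries for this gene, and the genotypes overlapped only in whole CA, with log2 fold changes of -1.09 (SE 0.12) in neurons and -0.08 (SE 0.06) in the whole region. Adgrf5, the receptor with the lowest neuron level relative to whole CA of these 3, had 2.91, 2.95 and 2.39 CPM in control neuron libraries and 1.23, 0.882 and 0.843 in cKO. Adgrf5 in whole CA ran from 37.6 to 51.8 CPM (median 47.2) in control and from 41.3 to 54.0 (median 47.7) in cKO. The whole CA groups overlapped almost fully, and the log2 fold changes were -1.48 (SE 0.19) in neuron RNA and 0.02 (SE 0.08) in whole CA.

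Among the enzymes, Folh1, which cleaves the transmitter N-acetylaspartylglutamate, stood at 1.90, 2.45 and 2.099 CPM in control neuron libraries and at 0.448, 0.410 and 0.484 in cKO. Folh1 in whole CA ran from 7.63 to 9.80 CPM (median 8.46) in control and from 7.35 to 11.5 (median 8.81) in cKO. The neuron genotypes were far apart and those of whole CA overlapped, with log2 fold changes of -2.27 (SE 0.19) and 0.03 (SE 0.12). Cd38, which makes cyclic ADP-ribose from NAD, had 1.44, 2.11 and 1.64 CPM in control neuron libraries and 0.374, 0.268 and 0.215 in cKO, from 12 to 131 counts a library. Cd38 in whole CA ran from 11.3 to 12.8 CPM (median 12.2) in control and from 7.67 to 12.7 (median 10.8) in cKO. These genotypes overlapped in whole CA only, and the log2 fold changes were -2.59 (SE 0.26) in neuron RNA and -0.18 (SE 0.12) in whole CA.

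The protease Capn3 stood higher in control neuron RNA than in any other group, with 18.3, 14.8 and 15.95 CPM against 3.81, 3.40 and 3.71 in cKO. Capn3 in whole CA ran from 6.59 to 10.2 CPM (median 8.33) in control and from 4.97 to 6.28 (median 5.63) in cKO. The genotypes overlapped in neither material, with log2 fold changes of -2.18 (SE 0.11) in neuron RNA and -0.58 (SE 0.12) in whole CA. Atp10b had 2.48, 3.54 and 2.26 CPM in control neuron libraries and 0.553, 0.709 and 0.646 in cKO. Atp10b in whole CA ran from 2.14 to 2.96 CPM (median 2.68) in control and from 1.62 to 2.76 (median 2.30) in cKO. Control neuron RNA and both whole CA groups overlapped, while the cKO neuron libraries lay below all others. Its log2 fold changes were -2.13 (SE 0.22) in neuron RNA and -0.23 (SE 0.16) in whole CA.

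Thbd, the endothelial cofactor through which thrombin activates protein C, was higher in control neuron RNA than in whole CA: 37.9, 35.4 and 32.1 CPM in control neuron libraries and 9.85, 8.65 and 10.4 in cKO. Thbd in whole CA ran from 12.4 to 16.9 CPM (median 14.8) in control and from 7.87 to 10.5 (median 8.49) in cKO. The cKO levels of both materials overlapped, and the genotypes did so in neither, with log2 fold changes of -1.88 (SE 0.11) in neuron RNA and -0.73 (SE 0.11) in whole CA. Ighm stood at 2.86, 2.80 and 3.79 CPM in control neuron libraries and at 0.822, 0.599 and 0.395 in cKO. Ighm in whole CA ran from 10.99 to 13.3 CPM (median 12.7) in control and from 6.97 to 10.3 (median 7.47) in cKO. All whole CA libraries lay above all neuron libraries, and the genotypes did not overlap in either material (log2 fold changes -2.37, SE 0.25, and -0.67, SE 0.10). Fam107a had the smallest log2 fold change of the 10 in neuron RNA, from 29.9, 29.5 and 29.4 CPM in control to 15.3, 18.02 and 16.8 in cKO (log2 -0.84, SE 0.09). Fam107a in whole CA ran from 446 to 563 CPM (median 511) in control and from 453 to 592 (median 520.5) in cKO, a full overlap (log2 0.02, SE 0.07).

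**Figure D1:**
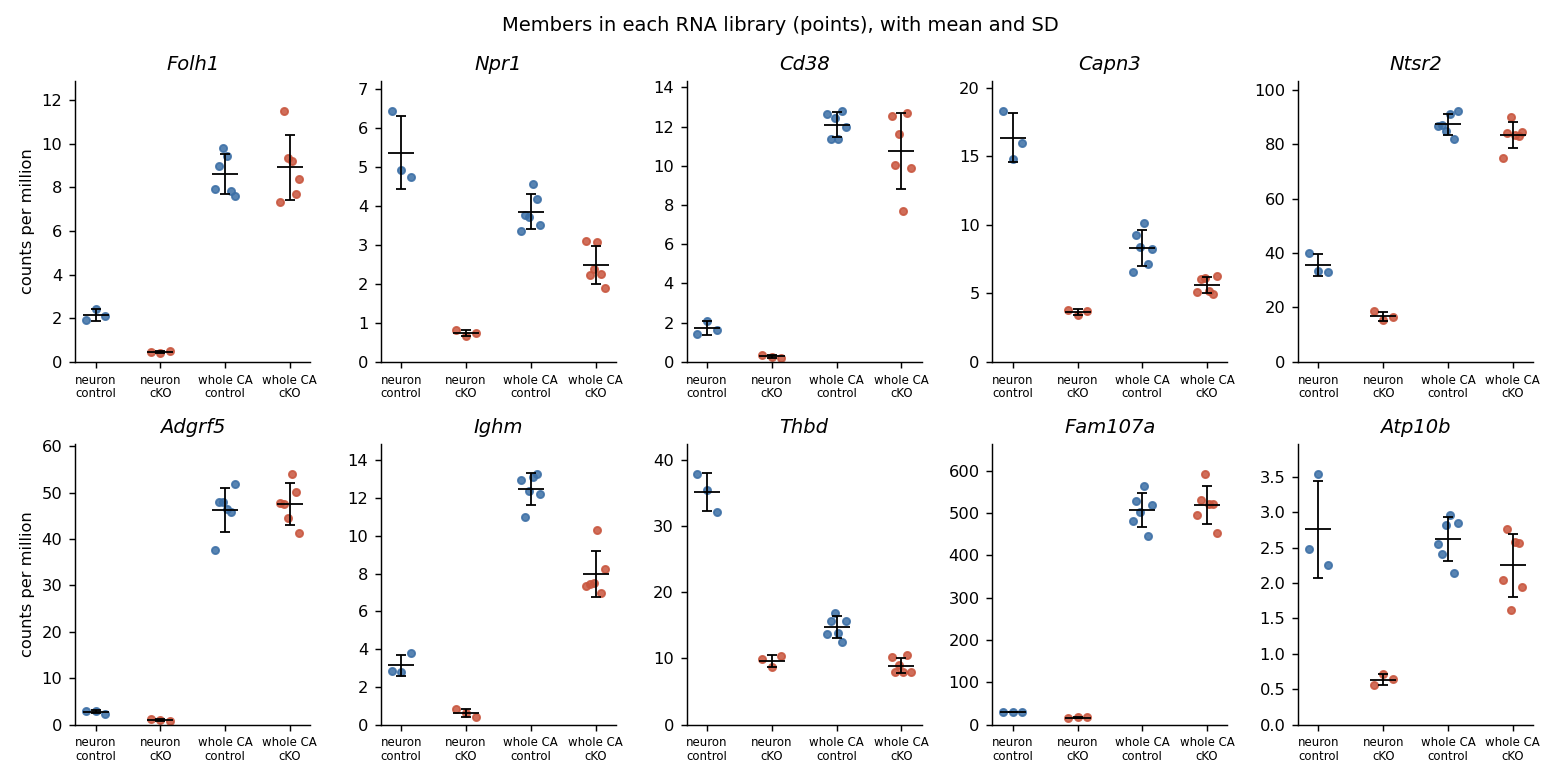
CPM (linear axis from 0, its own scale for each gene) of the 10 genes in each RNA library, with control in blue and cKO in red; points are libraries, and bars are mean and SD (n = 3 a neuron group, n = 6 a whole CA group). The neuron genotypes are apart for all 10 genes, and those of whole CA are apart for Npr1, Capn3, Ighm and Thbd only.

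In neuron RNA the genotypes did not overlap for any of the 10 genes, against 11.1% of all 19622 genes tested whose cKO libraries all lay below all control libraries. In whole CA this held for 4 of the 10 (Npr1, Capn3, Ighm and Thbd), against 1.78% of 15362. The rule used both contrasts, so nothing is read from these counts. All 10 passed the filter on low counts in each material. Their median log2 fold change was -2.15 in neuron RNA (range -2.87 to -0.84) and -0.21 in whole CA (range -0.73 to 0.03), against medians of 0.02 and -0.003 over all genes. The cKO mean was 13.7 to 56.5% of the control mean in neuron libraries, and in whole CA it was 60.7 to 104%. In both materials fewer expressing cells and less RNA per cell cannot be told apart.

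**Figure D2:**
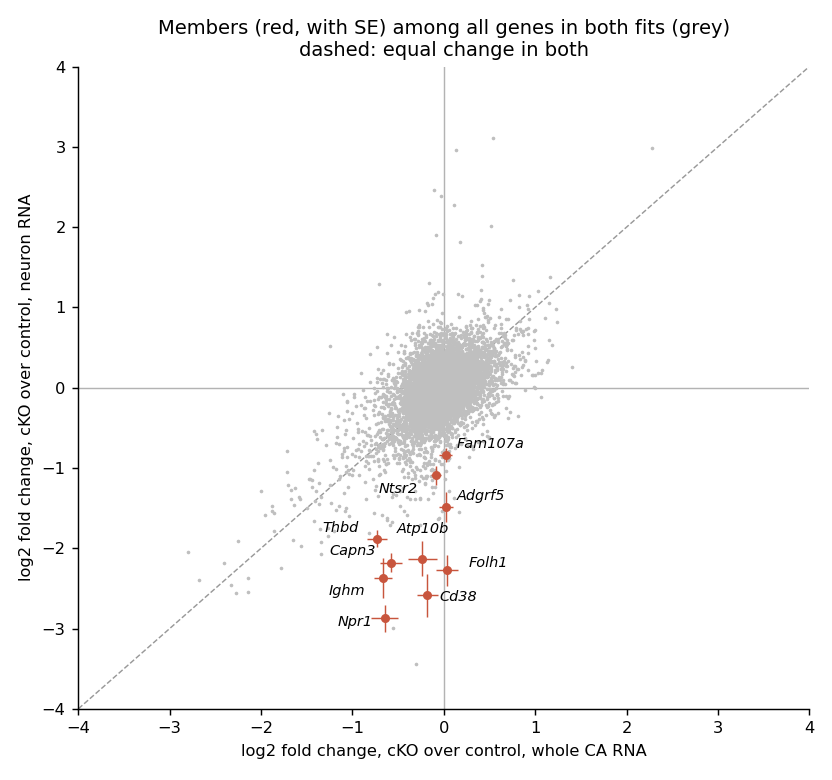
Log2 fold change of cKO over control in whole CA RNA (horizontal) and neuron RNA (vertical) for every gene in both fits (grey) and the 10 chosen genes (red, bars are SE), with equality as a dashed line. The 10 genes lie between -0.84 and -2.87 in neuron RNA, all below the dashed line, as the rule requires.

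The difference of the log2 fold changes (neuron minus whole CA, from 1 fit of all 18 libraries) ran from -2.38 (SE 0.27, Cd38) to -0.85 (SE 0.12, Fam107a). Over 17523 genes, 28 or 0.160% had a difference called by edgeR at an adjusted p under 0.05, and by p-value the 10 chosen genes were the leading 10. Just inside the choice stood Atp10b at -1.88 (SE 0.27), and just outside stood Ecm2 (a matrix protein) at -1.56 (SE 0.23) and Nptx2 (neuronal pentraxin 2) at -0.96 (SE 0.14). The further called genes with the lower value in neuron RNA were Ogn, Afap1l2, Plekhg1, Itpr2, Slc38a5, Lgi3, Fxyd1, Htra1, Adamts1, Col15a1 and Gpr37. Ogn had the most negative difference of these at -3.13 (SE 0.47), from 4.63 to 0.430 CPM in neuron RNA and from 2.39 to 1.95 in whole CA.

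The profile of the 10 genes over the 18 libraries, each gene centred within its material, was shared closely by 5 other genes, named by the highest Pearson r with the mean profile. They were Afap1l2 (r = 0.944), Plekhg1 (r = 0.940), the inositol trisphosphate receptor Itpr2 (r = 0.930), the astrocyte calcium-binding protein S100b (r = 0.919) and the small nucleolar RNA Snord55 (r = 0.914). The points share libraries and depth, so these values describe likeness only. S100b stood at 4.53 CPM in control and 2.52 in cKO neuron RNA, and at 117 and 102 in whole CA. Snord55 stood near 1 CPM in control neuron RNA (0.959) and was listed at 0 in whole CA. Its r therefore rests on the neuron libraries alone.

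Relative to whole CA, the 10 genes spread widely in control neuron RNA. Control neuron RNA held 239% of the whole CA level of Thbd, 197% of Capn3, 139% of Npr1 and 105% of Atp10b. Ntsr2 stood at 40.7%, Ighm at 25.2%, Folh1 at 24.96% and Cd38 at 14.3%, while Adgrf5 stood at 5.94% and Fam107a at 5.84%. On the fitted log2 scale Thbd was 1.08 (SE 0.11) above and Fam107a 4.28 below whole CA (log2 -4.28, SE 0.11), and the neighbours Ighm (-2.16, SE 0.16) and Folh1 (-2.18, SE 0.15), like Adgrf5 (-4.25, SE 0.13) and Fam107a, did not differ beyond their errors. With cKO libraries the share was smaller for each of the 10, from 108% for Thbd to 2.07% for Adgrf5. Mitochondrially encoded genes made up 0.00814 to 0.0144% of counts in neuron libraries and 3.41 to 7.05% in whole CA libraries. The materials thus differ in RNA make-up, and the percentages above are not shares of cells. Material cannot be told apart from preparation and sequencing run.

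Markers of the cell types from which these genes are better known were set beside them. The 10 astrocyte markers summed to 37.1 to 46.8 CPM in control and 37.7 to 39.7 in cKO neuron libraries, with the groups overlapping, and to 1700.1 to 1955 CPM in control whole CA. Of them, 0 of 10 were called in neuron RNA by edgeR (0 lower and 0 higher), against 2.75% of all genes. Gfap, the astrocyte filament protein, stood at 7.67 CPM in control and 6.28 in cKO neuron RNA, a log2 fold change of -0.30 (edgeR adjusted p = 0.324). Aqp4, the water channel of astrocyte endfeet, stood at 2.82 and 2.98 CPM (0.07, edgeR adjusted p = 0.870), and Aldh1l1 at 1.70 and 1.37 CPM (-0.32, edgeR adjusted p = 0.434). Control neuron RNA held 1.08 to 9.64% of the whole CA level of each astrocyte marker (median 2.29%), and Fam107a at 5.84% lay inside that range, as Adgrf5 did. Ntsr2 at 40.7%, Folh1 at 24.96% and Cd38 at 14.3%, also known from astrocytes, lay above that range.

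The 10 endothelial markers summed to 11.6 to 13.1 CPM in control and 11.1 to 11.8 in cKO neuron libraries, and the groups overlapped. Of the 7 tested in neuron RNA, 1 was lower: Kdr, a receptor of vascular endothelial growth factor, from 5.72 to 4.05 CPM (log2 -0.51, SE 0.11, edgeR adjusted p = 0.0411). That call was lost without any 1 of the 6 neuron libraries (adjusted p 0.0701 to 0.155), and Kdr fell in whole CA as well (log2 -0.40, SE 0.08, edgeR adjusted p = 0.00415), though with an adjusted p of 0.343 within replicates 4 to 6. The tight junction gene Cldn5 stood at 0.172 CPM in control neuron RNA and was too low to test, while the adhesion molecule Pecam1 stood at 0.379 and 0.289 CPM and the receptor Flt1 at 0.534 and 0.505. The median control level of an endothelial marker was 1.06% of whole CA. Thbd and Npr1, at 239% and 139%, lay above each endothelial marker, whose shares ran from 0.498 to 28.3%. Adgrf5, also known from blood vessels, lay inside that range at 5.94%.

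B cell markers gave 2 of 8 genes high enough to test in neuron RNA, and 0 were called, with 7 of 8 below 1 CPM in control. Cd79a stood at 0.20 CPM in control and 0.248 in cKO neuron RNA, and Cd79b at 0.0107 CPM in control, beside 3.15 CPM of Ighm. The joining chain Jchain was the exception of the list at 4.34 CPM in control and 4.00 in cKO. Of the lists for mural cells, microglia, oligodendrocytes, oligodendrocyte precursors and fibroblasts, 0 genes were called in neuron RNA. Inhibitory interneuron markers gave 0 of 7 calls in neuron RNA, with Gad1, which makes GABA, at 252 and 267 CPM. Some markers of excitatory cells did change. Of the pyramidal neuron markers, 2 of 5 were called lower in neuron RNA and 1 of 5 in whole CA (list median log2 -0.24 and -0.13). Neurod6, a transcription factor of pyramidal neurons, was called in both. It fell from 152 to 32.5 CPM in neuron RNA (log2 -2.24, SE 0.11, edgeR adjusted p = 2.96e-05) and from 381 to 112 in whole CA (log2 -1.78, SE 0.14, edgeR adjusted p = 1.48e-07). The other neuron call was lost without any 1 of the 6 neuron libraries (edgeR adjusted p 0.0634 to 0.169). Of the CA1 markers, 1 of 4 was called lower in each material (list median log2 -0.16 in neuron RNA and 0.01 in whole CA). This marker, Wfs1, fell from 140 to 65.4 CPM in neuron RNA (log2 -1.11, SE 0.09, edgeR adjusted p = 0.000219) and from 116 to 87.1 in whole CA (log2 -0.43, SE 0.10, edgeR adjusted p = 0.0122). The Wfs1 call in whole CA was not reached within either sequencing lane, at adjusted p = 0.0719 for replicates 1 to 3 and 0.186 for replicates 4 to 6. Of the CA2 and CA3 markers, 2 of 6 were called lower in neuron RNA and 4 of 6 in whole CA. Dentate granule markers gave 3 of 4 lower calls in neuron RNA and 1 of 4 in whole CA (list median log2 -0.73 and -0.65). All 3 of these neuron calls were lost without cKO replicate 1 (edgeR adjusted p 0.0782 to 0.193). Astrocyte markers gave 1 lower call of 10 in whole CA, Aqp4 (log2 -0.38, edgeR adjusted p = 0.0122), with a list median of -0.11 and Gjb6 (0.08), Fgfr3 (0.03) and Agt (0.19) above 0. Microglial markers gave 1 lower call of 10 in whole CA, the receptor Cx3cr1 (log2 -0.22, edgeR adjusted p = 0.0434), and all 10 had values below 0 (median -0.24). The Cx3cr1 call was lost without any 1 whole CA library other than cKO replicate 2 (adjusted p 0.0502 to 0.133), and Aqp4 had an adjusted p of 0.358 within replicates 1 to 3. The part of these markers in the levels of the 10 genes was not tested.

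**Figure D3:**
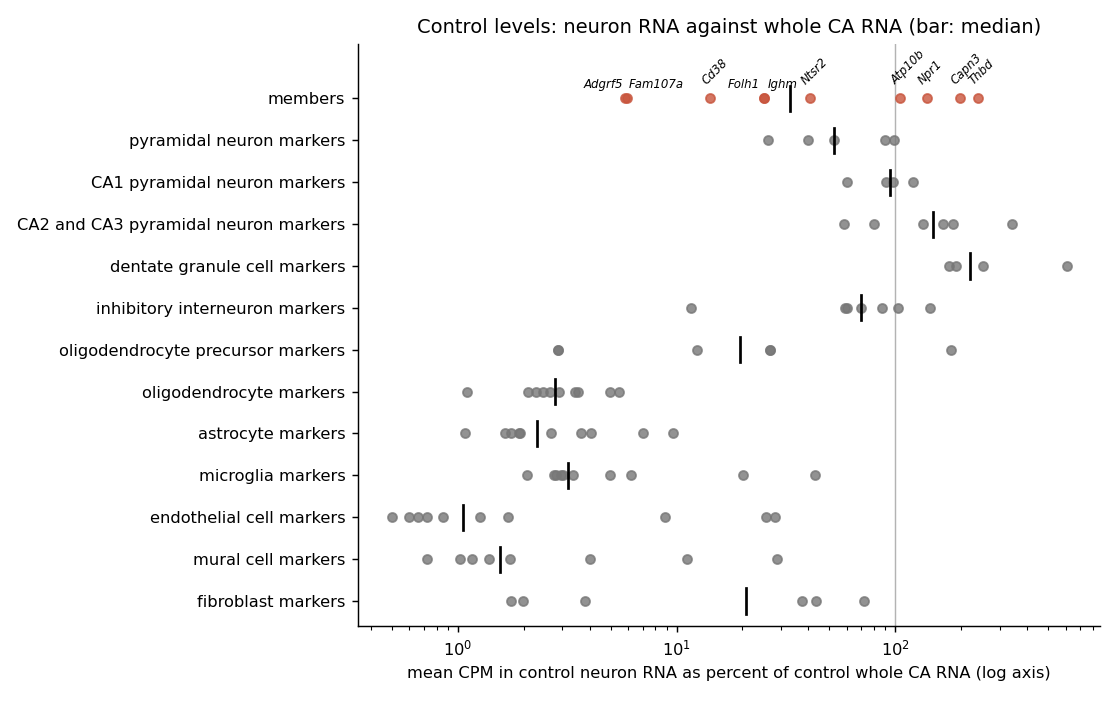
Mean CPM in control neuron RNA as a percentage of mean CPM in control whole CA (log axis, line at 100) for the 10 chosen genes (red) and for markers of 12 cell types with at least 1 CPM in whole CA (grey); vertical bars are medians over the genes shown. Adgrf5 and Fam107a lie below every neuronal marker shown (lowest 11.7%), and the other 8 genes lie within the range of neuronal markers, which overlaps that of glial markers (highest 180%).

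Genes of the same pathways were listed for comparison, 86 in all, of which 70 passed the filter in neuron RNA, 58 in whole CA and 65 for the difference between materials. In neuron RNA 1 of the 70 was lower and 0 were higher, where 2.75% of all genes were called. The exception was Nppc, the C-type natriuretic peptide and a ligand of the receptor Npr2. Its RNA fell from 3.67 ± 0.141 CPM to 1.57 ± 0.445 (SD, n = 3 each; log2 -1.23, SE 0.18, edgeR adjusted p = 0.00738), and the call was lost without cKO replicate 1 (adjusted p = 0.0649). Nppc in whole CA stood at 1.08 and 1.03 CPM (log2 -0.10, SE 0.29, edgeR adjusted p = 0.925), but its difference between materials was not called (-1.13, adjusted p = 0.456).

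Whole CA calls among the relatives were 2 lower and 1 higher of 58, where 4.17% of all genes were called. Rimklb, a synthetase of N-acetylaspartylglutamate, the substrate of Folh1, fell from 36.7 ± 1.88 to 28.5 ± 5.37 CPM (SD, n = 6; log2 -0.38, SE 0.10, edgeR adjusted p = 0.0338). F2r, the thrombin receptor PAR1, fell from 7.94 ± 1.53 to 4.99 ± 0.540 CPM (SD, n = 6; log2 -0.68, SE 0.13, edgeR adjusted p = 0.00400). Adgrl2, a latrophilin of the adhesion receptor family, rose from 89.9 ± 7.14 to 108 ± 6.62 CPM (SD, n = 6; log2 0.25, SE 0.07, edgeR adjusted p = 0.0356). Within a lane of 3 against 3, Rimklb had an adjusted p of 0.106 (replicates 1 to 3) and 0.419 (4 to 6), F2r of 0.130 and 0.0799, and Adgrl2 of 0.632 in replicates 4 to 6. Leaving out 1 library lost the call of Rimklb for cKO replicates 1, 3, 4 and 6 and control replicates 2 to 5 (adjusted p 0.0558 to 0.0785), and that of Adgrl2 for cKO replicates 1 and 2 and control replicates 1 to 4 (0.0589 to 0.0940). None of the 65 was called for a difference between materials. The calpain, NAD, neurotensin and flippase lists gave 0 calls in both materials (9, 9, 3 and 14 genes tested in neuron RNA), and 5 of the 10 immunoglobulin relatives of Ighm were at 0 counts in every neuron library.

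Histone marks at these genes come from libraries the rule did not use, and were therefore tested. The measure was the number of bases under called peaks within 2 kb either side of a start, compared on the scale of log2(bp + 100) by limma over all gene-start windows with a peak in at least 3 libraries. Every library of a genotype was called against 1 input library, with the same tag total for all 4 marks (31.3 M for cKO and 28.8 M for control). A genotype difference therefore cannot be told apart from one of inputs, and the marks are not separate in this respect. Covered length also moves with the depth of a library, and height within a peak is not part of the measure. Of the 10 starts, 6 had H3K4me3 peaks in enough libraries, and 3 of these 6 were shorter in cKO, at Ntsr2, Folh1 and the inner start of Fam107a, where 14.3% of the 17092 windows tested were called shorter.

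At the start of Ntsr2, H3K4me3 peaks covered 1313, 1282, 1293 and 1489 bp in control libraries and 892, 1087, 1093 and 1103 bp in cKO. The genotypes did not overlap, which held for 21.4% of all windows, and the log2 difference was -0.34 (SE 0.08, limma adjusted p = 0.0260). The adjusted p rose to 0.0519 to 0.0600 without any 1 of the 4 control libraries and to 0.395 with windows of 1 kb either side. This start lies inside the RefSeq span of Lpin1, a minus-strand gene whose upstream end overlaps the Ntsr2 span by 461 bp, so the peak covers both genes. Lpin1 RNA stood at 59.0 CPM in control and 57.1 in cKO neuron RNA (log2 -0.06, edgeR adjusted p = 0.746).

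Fam107a has starts 7.83 kb apart that behaved differently in these libraries. The inner start was covered over 2330, 1960, 2003 and 1957 bp in control and 1010, 1209, 1751 and 1226 bp in cKO. All cKO libraries lay below all control libraries, with a log2 difference of -0.65 (SE 0.15, limma adjusted p = 0.0277). The outer start, richer in CpG, was covered over 782 to 867 bp in control and 730 to 945 bp in cKO (log2 0.02, SE 0.07, limma adjusted p = 0.863), and the difference between both starts was not tested. The call at the inner start was lost without any 1 library other than cKO replicate 3 (adjusted p 0.0534 to 0.0684) and with windows of 1 kb (0.473).

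The Folh1 start was covered over 863, 825, 675 and 871 bp in control and 541, 639, 598 and 676 bp in cKO, so the lowest control library lay 1 bp below the highest cKO library. Its log2 difference was -0.35 (SE 0.09, limma adjusted p = 0.0401), and the call was lost without control replicate 1, 2 or 4 or cKO replicate 1, 2 or 3 (adjusted p 0.0574 to 0.101) and with windows of 1 kb (0.198). The Cd38 start was covered over 400, 517, 809 and 716 bp in control and 438, 321, 457 and 367 bp in cKO, a difference within the spread (log2 -0.49, SE 0.20, limma adjusted p = 0.143). Without control replicate 1, the shortest, its adjusted p was 0.0499. At the CpG-rich start of Npr1, whose RNA had the most negative log2 fold change of the 10, H3K4me3 covered 1642 to 1822 bp in control and 1673 to 1906 bp in cKO (log2 0.02, SE 0.05, limma adjusted p = 0.882). The outer start of Adgrf5 had a peak in 2 control libraries and in no cKO library, its inner start had none, and neither start of Capn3 had a peak in any of the 8 libraries.

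**Figure D4:**
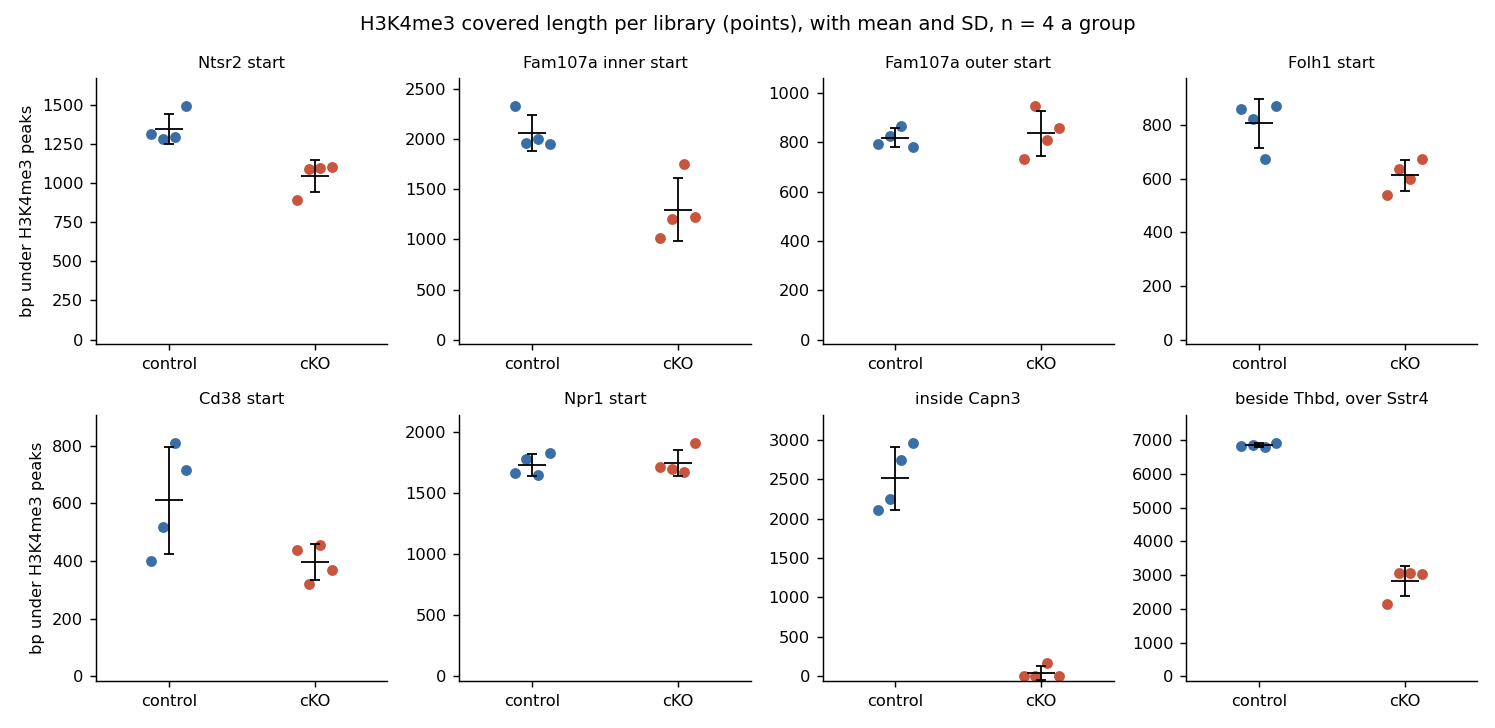
Bases under H3K4me3 peaks per library at 6 gene starts (2 kb either side), in the region inside Capn3 and in the region beside Thbd (linear axes from 0, control blue, cKO red; points are libraries, bars are mean and SD, n = 4 a group). Control and cKO are apart at Ntsr2, the inner Fam107a start and both regions, and overlap at the other starts.

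Merged peak regions within 20 kb of a gene, a measure added after the data were seen, covered stretches away from the annotated starts. Capn3 held an H3K4me3 domain at chr2:120496643-120499640, inside the gene and 19.7 kb from the nearer of its starts. It covered 2109, 2246, 2736 and 2956 bp in control libraries and 0, 0, 173 and 0 bp in cKO. Called peaks of this domain were thus nearly lost in all 4 cKO libraries, with a log2 difference of -4.33 (SE 0.35, limma adjusted p = 0.000278 over 44667 regions, of which 10.8% were called and 9.36% called shorter). The control peaks were low, with a fold enrichment of 3.18 to 8.57, and in control replicate 1 they were split into pieces of 177 to 883 bp. Covered length cannot tell a lost mark from one just under the q-value cutoff of 0.1, so the log2 difference is not a measure of signal. A neighbouring region, chr2:120499829-120500452, was covered over 165 to 617 bp in control and 0 bp in all cKO libraries (limma adjusted p = 0.00380). A short H3K27ac region, chr2:120499372-120499695, mostly inside the first domain, had a peak in all 3 control libraries (212, 249 and 288 bp) and in 0 of 4 cKO libraries (limma adjusted p = 0.00168, with 2.60% of H3K27ac regions called). The main H3K27ac region over the domain, chr2:120495624-120499110, covered 2801 ± 346 bp in control and 2726 ± 414 bp in cKO (SD, n = 3 and 4; log2 -0.04, SE 0.18, limma adjusted p = 0.936), and the next one, chr2:120499755-120500761, 876 ± 43.9 and 766 ± 114 bp (limma adjusted p = 0.682). Over the Capn3 span with 2 kb either side, H3K4me1 covered 8362 ± 1294 bp in control and 9356 ± 1035 bp in cKO (SD, n = 4; log2 0.17, SE 0.14, limma adjusted p = 0.536).

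Beside Thbd lay a broad H3K4me3 domain at chr2:148394642-148401669, which contains the single RefSeq gene Sstr4, a somatostatin receptor, and ends 2.80 kb from the Thbd span (chr2:148404471-148408188). The domain was covered over 6795 to 6914 bp in the 4 control libraries and 2138 to 3067 bp in the 4 cKO libraries. Its Sstr4 end kept peaks in every cKO library, and its Thbd end did not (log2 -1.26, SE 0.12, limma adjusted p = 0.000643). The kept peaks were lower. The highest fold enrichment of a peak in the domain was 45.6 to 51.1 in control libraries and 25.5 to 39.3 in cKO, a difference that was not tested. H3K9ac covered the same stretch (chr2:148394642-148401232) over 6142 to 6453 bp in control and 3289 to 3692 bp in cKO (log2 -0.82, SE 0.13, limma adjusted p = 0.0194, with 0.935% of H3K9ac regions called shorter), a call lost without any 1 of the 3 cKO libraries (adjusted p 0.0996 to 0.155). H3K27ac over the domain (chr2:148394654-148401150) covered 5649 ± 610 bp in control and 5905 ± 235 bp in cKO (SD, n = 3 and 4; log2 0.07, SE 0.14, limma adjusted p = 0.878). It was longer in cKO in the gap between the domain and Thbd (chr2:148401197-148404374), with 923, 1167 and 1009 bp in control and 2753, 2675, 2436 and 2789 bp in cKO (log2 1.29, SE 0.15, limma adjusted p = 0.00491). A second H3K27ac region further off (chr2:148391445-148392114) was at 0 bp in all 3 control libraries and covered 339 to 486 bp in cKO (limma adjusted p = 0.00154). Over Thbd and 2 kb either side, an H3K4me3 peak was called in 1 control and 1 cKO library only. The control peak lay outside the Thbd span, at -2.17 to -1.84 kb from its lower end, and so only in part within the 2 kb. Peaks of the other control libraries ended just outside, at -2.53 to -2.355 kb.

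Sstr4, singled out after its values were seen, fell in neuron RNA from 63.4 ± 12.6 to 16.3 ± 1.43 CPM (SD, n = 3; log2 -1.97, SE 0.14, edgeR adjusted p = 0.000129). In whole CA it fell from 24.8 ± 1.88 to 8.47 ± 1.18 CPM (SD, n = 6; log2 -1.57, SE 0.10, edgeR adjusted p = 4.61e-09). Cd93, an endothelial gene on the other side of Thbd, stood at 2.49 and 2.41 CPM in neuron RNA (log2 -0.06, edgeR adjusted p = 0.903).

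**Figure D5:**
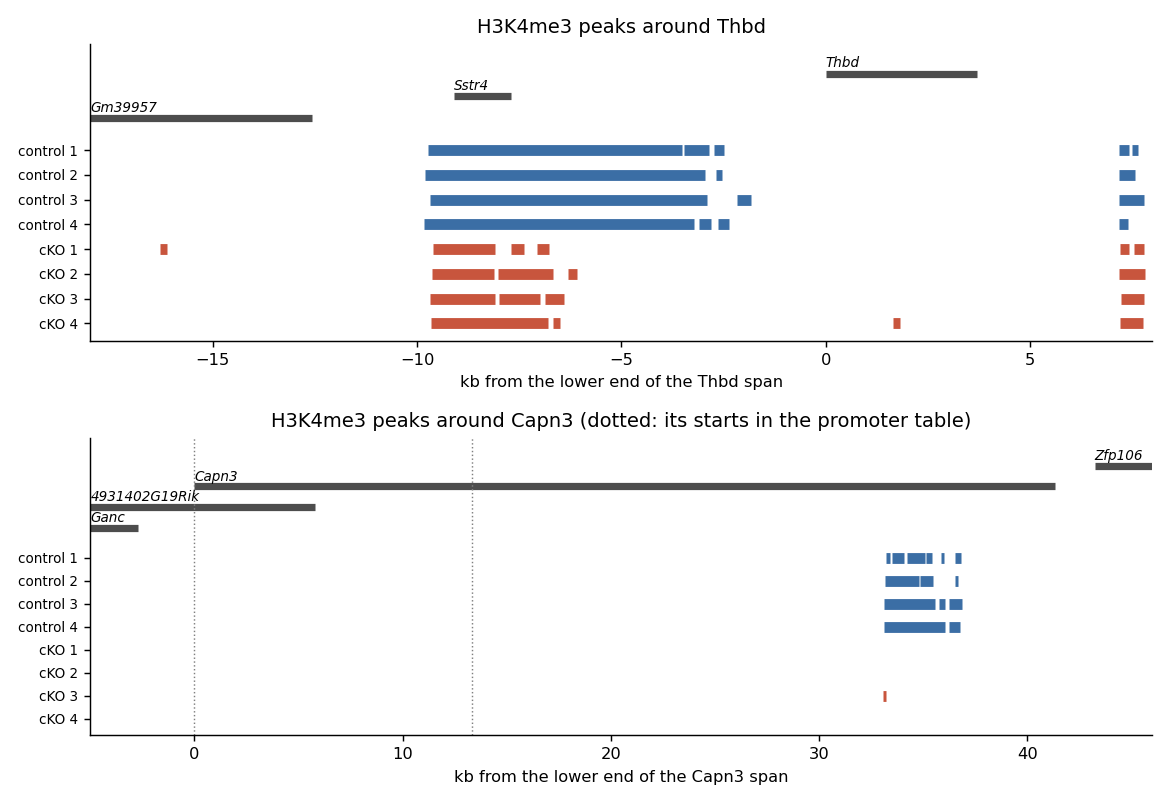
H3K4me3 peaks of each library (control blue, cKO red) around Thbd and Capn3, as kb from the lower end of each gene's span, with RefSeq genes as grey bars. Control peaks reach from Sstr4 towards Thbd, where cKO has none between -6.10 kb and the Thbd span. Inside Thbd, cKO replicate 4 has a peak of 163 bp, and beyond Thbd every library of both genotypes has peaks. Inside Capn3, cKO has 1 peak of 173 bp.

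On the scale of merged regions, the peaks at the starts of Ntsr2 and Folh1 missed the threshold (limma adjusted p = 0.0543 and 0.0773), and that at the inner Fam107a start passed it (0.0431). A called shorter H3K4me3 region within 20 kb was found for 4 of the 10 genes (Capn3, Thbd, Npr1 and Fam107a), against 33.9% of the 14171 genes tested in both materials, so their number is near that of genes in general. For Npr1 this region (chr3:90431071-90434513) lay over the start of the neighbouring minus-strand gene Ints3, 16.1 kb from the Npr1 span, and went from 3090 ± 202 to 2258 ± 139 bp (SD, n = 4; log2 -0.44, SE 0.07, limma adjusted p = 0.00866), while Ints3 RNA did not pass the test (95.5 and 87.3 CPM in neuron RNA, log2 -0.14, edgeR adjusted p = 0.473). A called shorter H3K27ac region was found near 1 of the 10 (10.9% of genes) and a called shorter H3K9ac region near 1 (8.79%). A region beside Ighm (chr12:113424197-113425502, 1.47 kb from its span) was covered over 878 ± 238 bp of H3K4me3 in control and 412 ± 126 bp in cKO (SD, n = 4), short of the threshold (log2 -0.93, SE 0.25, limma adjusted p = 0.0658).

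H3K27ac at the gene starts gave 0 calls for these genes by limma (0.434% of 17049 windows were called). Of the 4 starts tested, all 4 had every cKO library below every control library, where this held for 10.1% of all windows, and all 4 had an unadjusted p under 0.05, as did 12.7% of all windows. Ntsr2 was covered over 1080 to 1165 bp in control (n = 3) and 456 to 968 bp in cKO (n = 4; log2 -0.70, SE 0.21, limma adjusted p = 0.292). The inner Fam107a start was covered over 1599 to 2323 bp in control and 658 to 1378 bp in cKO (log2 -0.87, SE 0.25, limma adjusted p = 0.268). Its outer start had 234 to 917 bp in control and a peak in 1 of 4 cKO libraries (218 bp), and Npr1 had 283 to 1154 bp in control and a peak in 1 of 4 cKO libraries (273 bp; limma adjusted p = 0.268 and 0.243). Over whole spans, where 0.607% of genes were called and 0 of these 10, Npr1 went from 2695 ± 292 to 1598 ± 200 bp (SD, n = 3 and 4; log2 -0.72, SE 0.13, limma adjusted p = 0.109) and Thbd from 4480 ± 509 to 6527 ± 211 bp (log2 0.54, SE 0.10, limma adjusted p = 0.120).

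H3K4me1 and H3K9ac at the starts also gave 0 calls for these genes by limma, against 1.92% and 0.455% of windows, with 2 of 8 and 0 of 5 tested starts at an unadjusted p under 0.05, where 15.3% and 14.9% of all windows were. At Ntsr2, H3K4me1 covered 2631, 1775, 2693 and 2656 bp in control and 1875, 1798, 1867 and 1463 bp in cKO (log2 -0.44, SE 0.15, limma adjusted p = 0.241). When only peaks with a −log10 q of at least 5 were kept, the direction turned: the start had no peak left in any control library and kept all its covered bases in the 4 cKO libraries (log2 4.20, limma adjusted p = 5.13e-06). Broad region calling was on for H3K4me1 only, so this filter kept or dropped whole broad regions. What the turn reflects was not tested. At Folh1, H3K4me1 covered 320 to 578 bp in control and 443 to 954 bp in cKO (log2 0.60, SE 0.25, limma adjusted p = 0.321). Npr1 H3K9ac stood at 994 to 1186 bp in control (n = 4) and 910 to 1034 bp in cKO (n = 3; log2 -0.17, SE 0.08, limma adjusted p = 0.370).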

How the data were processed

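RNA-seq counts per gene were deposited by the authors as whole numbers for 6 neuron and 12 whole CA libraries, and per the submitters' processing notes the build was mm10. The counting tool and its use of strand are not given in the sources used here, so overlapping and antisense genes cannot be told apart. ChIP-seq peaks were called by the authors per library with MACS2 (2.1.1.20160309 for H3K4me3, 2.1.0.20140616 for the other marks) at a q-value cutoff of 0.1, per the file headers. Broad region calling was on for H3K4me1 and off for the other marks. The deposited peak tables also give a pileup signal, a fold enrichment ratio and −log10 p and q. Peak lengths were tested here, and −log10 q served as a stricter filter. Fold enrichment is given for the H3K4me3 domains at Capn3 and Thbd as a description only.

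Counts were tested with edgeR 4.0.16 (R 4.3.3; TMM factors, its filter on low counts, quasi-likelihood test, Benjamini-Hochberg adjusted p under 0.05) in each material, and in 1 model of 4 groups for the difference between materials. Neuron libraries held 55.7 to 69.1 M counts and whole CA libraries 14.9 to 20.1 M. Covered bp were tested with limma 3.58.1 on log2(bp + 100) in windows of 2000 bp either side of RefSeq starts with a peak in at least 3 libraries. DESeq2 1.42.0, other scalings, filters, windows, offsets and left-out libraries were alternatives. Gene spans, merged regions, and the scalings of control levels were added after the data were seen. Each fit was tested on simulated data.

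The 10 genes and all gene lists were chosen with earlier results of these data known. Named are these genes, relatives that were called, genes among the leading 3 of marker lists (1 of them is not reported here), the 5 most alike genes and the genes called for the difference. Kdr, Gjb6, Fgfr3, Agt, Jchain, Lpin1, Ints3, Sstr4 and Cd93 were named after their values were seen. Whole CA replicates 1 to 3 and 4 to 6 come from separate lanes per the file names. The H3K27ac file names number the control libraries differently from the labels, and the labels were used.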

Additional observations from a re-analysis of the deposited data

Results flagged for a closer look

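In 12 groups of libraries the highest or lowest value lay far from the others (a gap above Dixon's critical share of the range). These were 1 of 20 whole CA groups and 11 of 60 ChIP groups. For normally distributed values, chance flags about 1 group in 20. A ChIP group with a peak in 1 library only is always flagged, since its gap equals its range. The ChIP count therefore cannot be read against that rate. Ighm in whole CA stood at 10.3 CPM in cKO replicate 4, against 6.97 to 8.22 in the other 5 cKO libraries. H3K4me3 at the Ntsr2 start covered 1489 bp in control replicate 4 (others 1282 to 1313) and 892 bp in cKO replicate 1 (others 1087 to 1103). The inner Fam107a start was covered over 2330 bp in control replicate 1 (others 1957 to 2003), and the Npr1 start over 1906 bp in cKO replicate 4 (others 1673 to 1708). Single libraries alone had H3K4me3 peak bases over the span and 2 kb either side of Capn3 (173 bp, cKO replicate 3), Thbd (164 bp in control replicate 3 and 163 bp in cKO replicate 4) and Atp10b (245 bp, cKO replicate 1), with 0 in the others of their group. The 164 bp at Thbd are the part of a 333 bp peak beside the gene that falls within the 2 kb. H3K4me1 at Ntsr2 covered 1775 bp in control replicate 2 (others 2631 to 2693). For H3K27ac, cKO replicate 2 alone had a peak at the outer Fam107a start (218 bp) and cKO replicate 3 alone at the Npr1 start (273 bp).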

How the results depend on the processing

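For all 10 genes the log2 fold change in neuron RNA and the difference between materials stayed below 0 under every alternative run, and none moved by more than the spread between replicates. In whole CA the values near 0 changed sign (Folh1 -0.05 to 0.09, Adgrf5 -0.03 to 0.08, Fam107a -0.08 to 0.12). Counts of called genes were 539 in neuron RNA (DESeq2 833; 207 to 482 leaving out 1 library), 640 in whole CA (207 in replicates 1 to 3 alone, 224 in replicates 4 to 6 alone; 467 to 669 leaving out 1) and 28 for the difference (69 with no filter on low counts, 67 by DESeq2, 16 with whole CA replicates 4 to 6 alone; 18 to 32 leaving out 1). Called windows were 2548 for H3K4me3 (255 with 1000 bp either side, 5425 with 5000; 1622 to 2799 leaving out 1), 408 for H3K4me1 (237 and 1611; 270 to 469), 74 for H3K27ac (4 with an offset of 1000 bp; 1 to 81) and 80 for H3K9ac (51 and 328; 12 to 71). Asking for a peak in every library left 0 calls by limma for H3K27ac and 0 for H3K9ac. H3K4me1 at Ntsr2 turned to 4.20 with −log10 q of at least 5. The cause of these shifts was not tested. Replicate numbers are shared by the genotypes but gave no steady pairing in neuron RNA (correlations of same-numbered libraries -0.12, 0.47 and -0.37). In whole CA these correlations ran from -0.09 to 0.22. The main whole CA fit held no term for replicate or lane, so structure shared by both genotypes was not modelled there. With a replicate block the calls were 327 in neuron RNA, 839 in whole CA, 30 for the difference, and 1514, 33, 0 and 0 windows by limma for H3K4me3, H3K4me1, H3K27ac and H3K9ac, and the adjusted p was 0.0511 at Ntsr2, 0.0844 at the inner Fam107a start and 0.0710 at Folh1 for H3K4me3. Depth limits Cd38 most, at 12 to 25 counts in the neuron libraries labelled cKO.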
